A study of Mus musculus with 90 samples.

Results

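The genes that encode Wnt ligands, their R-spondin agonists, their Frizzled and Lgr receptors and their secreted inhibitors were followed across 15 tissues of female mice in 2 phases of the estrous cycle. They were taken by symbol, as every gene of the table named Wnt, Fzd, Sfrp, Dkk or Rspo with a number, together with Lgr4, Lgr5, Lgr6 and Wif1. This gave 45 of the 20414 genes: 19 Wnt ligands, 4 R-spondins, 10 Frizzled receptors, 3 Lgr receptors, 4 Sfrp, 4 Dkk and Wif1. The data are RNA-seq levels in 90 libraries, with 3 libraries for each tissue and phase. All mice were untreated females, C57BL/6 and 10 weeks old by the sample labels. The methods write the strain as C57BL/6J and state a younger age. The mice were assigned to estrus or diestrus by vaginal cytology. The tissues were the uterus, which the labels call womb, and ovary, the cerebrum and hypothalamus, aorta, vein and heart, stomach and duodenum, liver, spleen and kidney, skeletal muscle, and brown and white adipose tissue. The 15 tissues were dissected from the same 3 mice per phase, but the labels do not say which libraries share a mouse. The p-values below therefore treat libraries as independent, and those of the fits that join tissues may be too small.

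Wnt ligands are secreted lipid-modified proteins that bind Frizzled receptors on the cell surface, either to stabilise beta-catenin or to act on cell shape and movement. R-spondins bind Lgr4, Lgr5 and Lgr6 and keep Frizzled receptors at the surface, whereas Sfrp and Wif1 bind the ligands and Dkk1 and Dkk2 block the Lrp co-receptors. In the mouse uterus, Wnt7a is known from the lining epithelium, Wnt5a and Wnt4 from the stroma, and the family is needed for the formation of the uterine glands and the response to the embryo.

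Levels are given in FPKM (fragments per kilobase of transcript and per unit of sequencing depth), which are comparable between genes because they are scaled to length. The table holds no read totals. Steps between the values of short genes placed the 6 uterus libraries at approximately 11.1 to 16.6 M reads (M for mega) and the median of 89 libraries at 15.6 M, and brown adipose tissue estrus replicate 3 at 0.0752 M. That library listed 12048 genes at 0, against 2404 to 4820 in the other 89. The study states more reads per sample than the median above. The estimates also jumped within some tissues, so that of a single library is uncertain. Cerebrum diestrus replicate 2 came out at 31.6 M, against 15.6 to 16.3 M in the rest of cerebrum. The identity marker of each of 14 tissues, vein having none, had its highest mean in that tissue, with Hoxa11, a homeobox gene of the uterus, at 48.1 FPKM in the uterus and 3.5 FPKM in the next tissue. The aorta marker, Myh11, averaged 475 FPKM in aorta and 320 FPKM in the next tissue. Its highest aorta library stood at 1669 FPKM, and the place of aorta depended on that library. Some libraries held markers of neighbouring tissue. In uterus estrus replicate 3, the 8 squamous epithelium markers summed to 4605 FPKM and Ovgp1, the oviduct glycoprotein, stood at 2554 FPKM, against 1.10 to 162 FPKM and 22.3 to 126 FPKM in the other 5 uterus libraries. In ovary estrus replicate 3, Ovgp1 stood at 1563 FPKM, against 12.4 and 39.7 FPKM in estrus replicates 1 and 2 and 2.35 to 4.67 FPKM in diestrus. Since the samples are whole tissue, a lower level from fewer cells of a type and one from less RNA per cell cannot be told apart.

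The first question was where the members were expressed. The ovary and the uterus listed the most members at a mean of at least 1 FPKM, 29 and 28 of the 45, followed by hypothalamus with 27, vein with 25, and aorta and cerebrum with 24 each. Liver and spleen were lowest with 11 each. At 10 FPKM or more the uterus stood at 14 members, ahead of aorta and ovary with 9 each. For 9 members the uterus had the highest mean of the 15 tissues, more than any other tissue, of which 8 reached 1 FPKM there. Fzd6, Fzd2, Fzd10, Wnt5a, Wnt7a, Wnt11, Rspo3 and Wif1 were these 8, whereas Wnt8a, the ninth, had a mean of 0.03 FPKM. The places of Wif1 and Wnt8a rested on 1 library each. In all, 5 members had no tissue mean of 1 FPKM (Wnt1, Wnt3a, Wnt8a, Wnt8b and Dkk4), 31 reached 5 FPKM in some tissue, and 1, Fzd7, had a mean of at least 1 FPKM in every tissue.

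**Figure D1:**
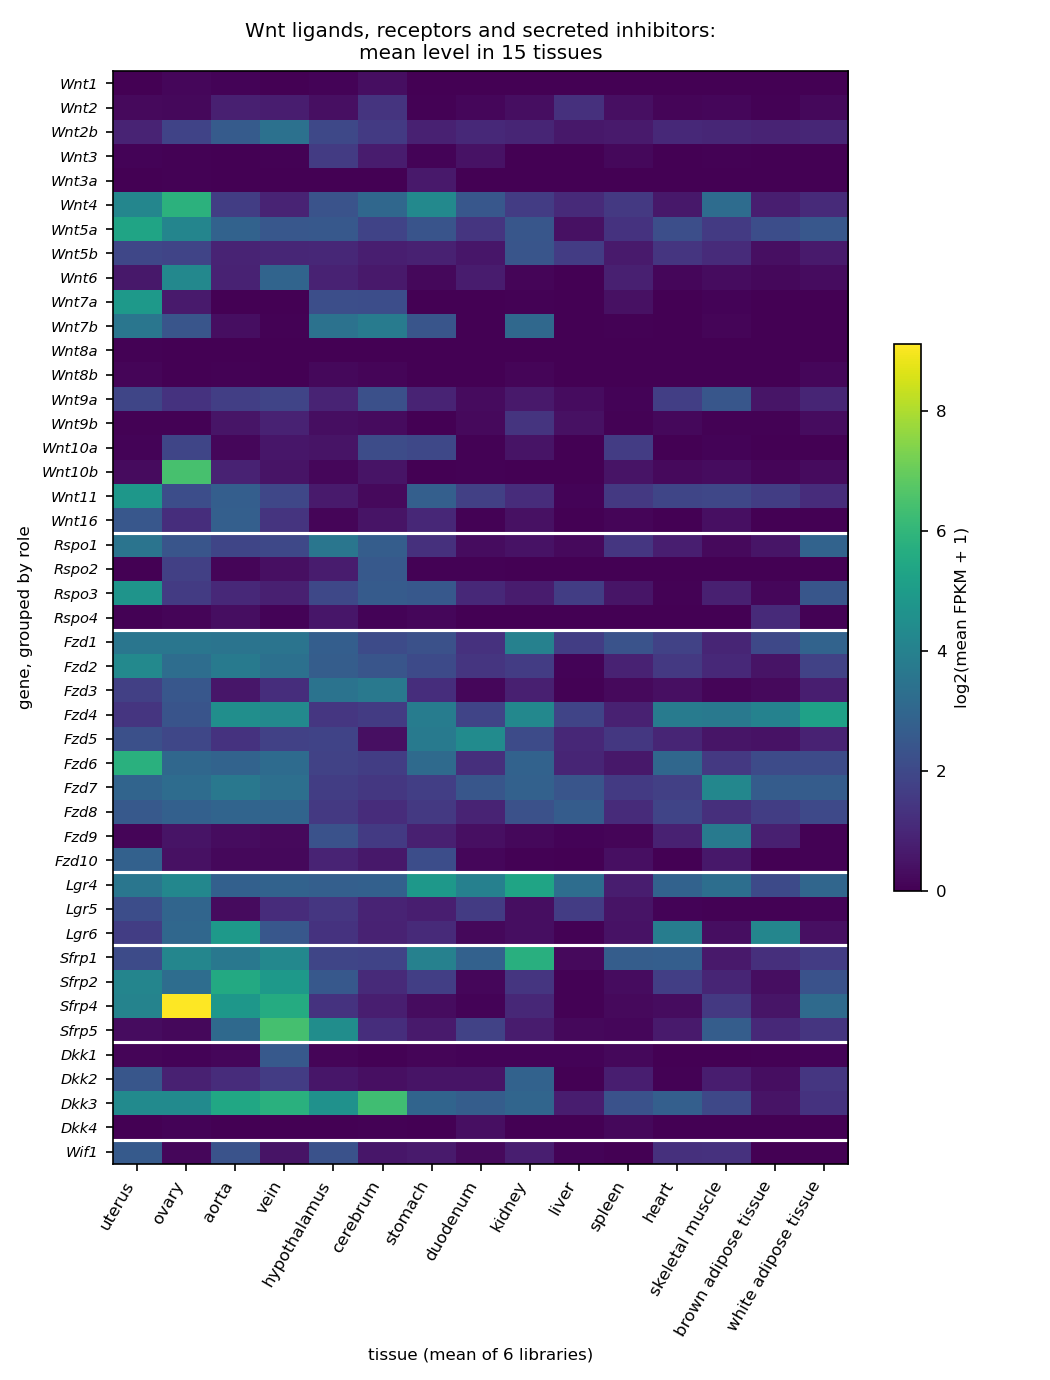
Mean level of each of the 45 genes (rows, grouped by role with white lines between the roles) in each of 15 tissues (columns, mean of 6 libraries), coloured by log2(mean FPKM + 1). Sfrp4 in ovary is the brightest cell at a mean of 552 FPKM, and the uterus column is bright for Wnt5a, Wnt7a, Wnt11, Rspo3 and Fzd6.

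Among the Wnt ligands, the uterus and the ovary were the highest tissues, with different members in each. Wnt5a, which acts mostly without beta-catenin, averaged 38.9 ± 17.8 FPKM in the uterus (SD, n = 6, as for the tissue means below) and 16.7 FPKM in the ovary, with overlapping libraries. Wnt7a averaged 28.5 ± 26.3 FPKM in the uterus and 3.53 FPKM in hypothalamus, the next tissue. Wnt11, a ligand known from tissue morphogenesis, averaged 27.6 ± 26.2 FPKM in the uterus and 5.74 FPKM in stomach. The ovary was the highest tissue for Wnt10b at 86.5 ± 39.6 FPKM, Wnt4 at 57.4 ± 14.4 FPKM and Wnt6 at 18 ± 9.78 FPKM. The 6 ovary libraries of Wnt10b did not overlap those of any other tissue, since the next tissue, aorta, had a mean of 0.847 FPKM. Wnt10b is best known from the mammary and hair lineages, and Wnt4 as the ligand that keeps the embryonic gonad female. Wnt10b averaged 0.202 FPKM in the uterus, and Wnt6 averaged 0.492 FPKM there. Summed over the 19 ligands, the ovary stood at 198 FPKM and the uterus at 135 FPKM, with cerebrum next at 40.2 FPKM. Other ligands were highest elsewhere. Wnt7b averaged 12.9 FPKM in cerebrum and 11.1 FPKM in the uterus, Wnt2b averaged 9.6 FPKM in vein, and Wnt16 averaged 5.75 FPKM in aorta and 4.55 FPKM in the uterus, each with overlapping libraries. The aorta mean of Wnt16 came largely from estrus replicate 1, at 24.3 FPKM, against 0.98 to 4.02 FPKM in the other 5 aorta libraries, whose mean of 2.05 FPKM lay below that of the uterus. In that library the 6 smooth muscle markers summed to 16030 FPKM and the 3 adipocyte markers to 181 FPKM, against 1761 to 2590 FPKM and 2050 to 2309 FPKM in the other 5, and their part in the levels of aorta was not tested.

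Of the R-spondins, Rspo3 averaged 25.6 ± 11.9 FPKM in the uterus, at 16.8 to 49.3 FPKM, without overlap with cerebrum, the next tissue, at a mean of 5.17 FPKM. A single library of another tissue, white adipose tissue estrus replicate 1, reached this range at 20 FPKM. Rspo1 averaged 10.9 ± 1.11 FPKM in hypothalamus and 10.3 ± 5.85 FPKM in the uterus, which overlapped. Rspo2 had a mean of 0.0133 FPKM in the uterus and was highest in cerebrum at 4.78 FPKM.

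The Frizzled receptors differed more in place. Fzd6, known from hair and skin patterning, averaged 53.7 ± 28 FPKM in the uterus and 8.08 FPKM in vein, the next tissue. Its lowest uterus library, at 28.4 FPKM, lay above every library of the other tissues, of which an ovary library was highest at 14.6 FPKM. Fzd2 averaged 18.5 ± 11.7 FPKM in the uterus and 12.6 FPKM in aorta. Fzd4, the receptor that norrin also binds, was highest in white adipose tissue at 35.8 ± 11.1 FPKM and was among the lowest in the uterus, at 1.63 FPKM. Fzd5 was highest in duodenum at 20.2 FPKM, where it is known from the crypts, and Fzd1 in kidney at 14.9 FPKM. Fzd7 at 17.7 FPKM and Fzd9 at 12.2 FPKM were highest in skeletal muscle, Fzd9 without overlap with hypothalamus at 3.86 FPKM. Fzd3, an axon guidance receptor, was highest in cerebrum at 11.9 FPKM, and Fzd8 was highest in vein at 6.75 FPKM and close to it in aorta at 6.6 FPKM, above the vein mean of 5.88 FPKM without diestrus replicate 2. The summed level of the 10 receptors was 108 FPKM in the uterus, the highest of the 15 tissues. Lgr4 was highest in kidney at 38.5 ± 5.53 FPKM, Lgr5, a stem cell marker, in ovary at 6.8 ± 1.24 FPKM with the uterus next at 3.49 FPKM, and Lgr6 in aorta at 29.7 ± 12.6 FPKM, with estrus replicate 1 at 54 FPKM and the other 5 libraries at 19.1 to 31.2 FPKM.

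Each secreted inhibitor except Wif1 had its highest mean outside the uterus. Wif1 averaged 5.05 ± 8.31 FPKM in the uterus and 3.99 FPKM in aorta, with overlap. Without estrus replicate 2, at 21.4 FPKM, its uterus mean was 1.77 FPKM, and 2 tissues were higher. Sfrp4 reached 552 ± 305 FPKM in ovary, where the next tissue, vein, had a mean of 47.5 FPKM and no library overlapped. Sfrp5 was highest in vein at 84.3 ± 33.1 FPKM, again without overlap with the next tissue, and Sfrp1 in kidney at 53.1 ± 8.07 FPKM. Sfrp2 averaged 45.7 ± 31 FPKM in aorta, where estrus replicate 1 held 108 FPKM and the other 5 libraries 26.2 to 43.3 FPKM. Dkk3, the divergent member of its family, averaged 79.1 ± 30.4 FPKM in cerebrum and 19.5 FPKM in the uterus. Dkk2 averaged 6.36 FPKM in kidney and 4.41 FPKM in the uterus, with overlap. Dkk1, the best known Lrp blocker, averaged 4.87 ± 1.58 FPKM in vein and at most 0.158 FPKM in any other tissue.

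These levels were tested with limma on log2(FPKM + 1) in a fit of all 90 libraries, with each tissue set against the mean of the other 14. A gene was called where its log2 difference reached 1 in either direction with an adjusted p not above 0.05, and a difference on this scale understates the change of low genes. The test took the 32 members that averaged 1 FPKM or more in the 90 libraries, and the other 13 were not tested. The uterus had 16 of the 32 called higher (50%), against 16.8% of all genes tested, and 2 called lower (6.25%), against 6.44% of all genes. The median log2 difference of the members was 0.97, beside 0.29 over all genes. Quantile normalization moved the median of all genes to -0.06 and that of the members to 0.62, so that the members stood 0.68 above all genes on both scales. The members called higher were 6 Wnt ligands (Wnt4, Wnt5a, Wnt7a, Wnt7b, Wnt11, Wnt16), the R-spondins Rspo1 and Rspo3, the receptors Fzd1, Fzd2, Fzd6 and Lgr5, and the inhibitors Sfrp2, Sfrp4, Dkk2 and Dkk3, of which Dkk3, Fzd1 and Lgr5 were not called after quantile normalization. The members called lower were Fzd4 and Sfrp5. The contrast averages the tissues on the log2 scale, so a member called higher can lie below single tissues. Sfrp4 had uterus means of 13.9 and 17.7 FPKM in estrus and diestrus, below its means of 552 FPKM in ovary and 47.5 FPKM in vein. Wnt7a and Wnt16 averaged 0.576 and 0.778 FPKM in the other 14 tissues and passed the filter only through the uterus, which favoured their calls. With a filter on the mean of the other 14 tissues, added after seeing the data, 14 of 29 members were called higher (48.3%), against 16.4% of all genes, and 2 lower, against 6.48%. The median of the members was then 0.83, beside 0.28 over all genes. The differences of the members that pass this filter ran up to 3.53 ± 0.14 (SE) for Fzd6, 3.49 ± 0.23 for Rspo3 and 3.03 ± 0.12 for Wnt5a. The adjusted p in limma was 4.75e-33 for Wnt5a. Wnt7a differed by 3.68 ± 0.22. These SE and p rest on a spread shared by all tissues and may be too small where the uterus varies more. The uterus libraries of Wnt7a ran from 2.32 to 59.1 FPKM. The smallest called difference was that of Lgr5 at 1.03 ± 0.16. Without uterus estrus replicate 3, which held the squamous and oviduct markers, 15 members were called higher, 14 of them shared with the 16, and Dkk3 and Lgr5 were lost.

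**Figure D2:**
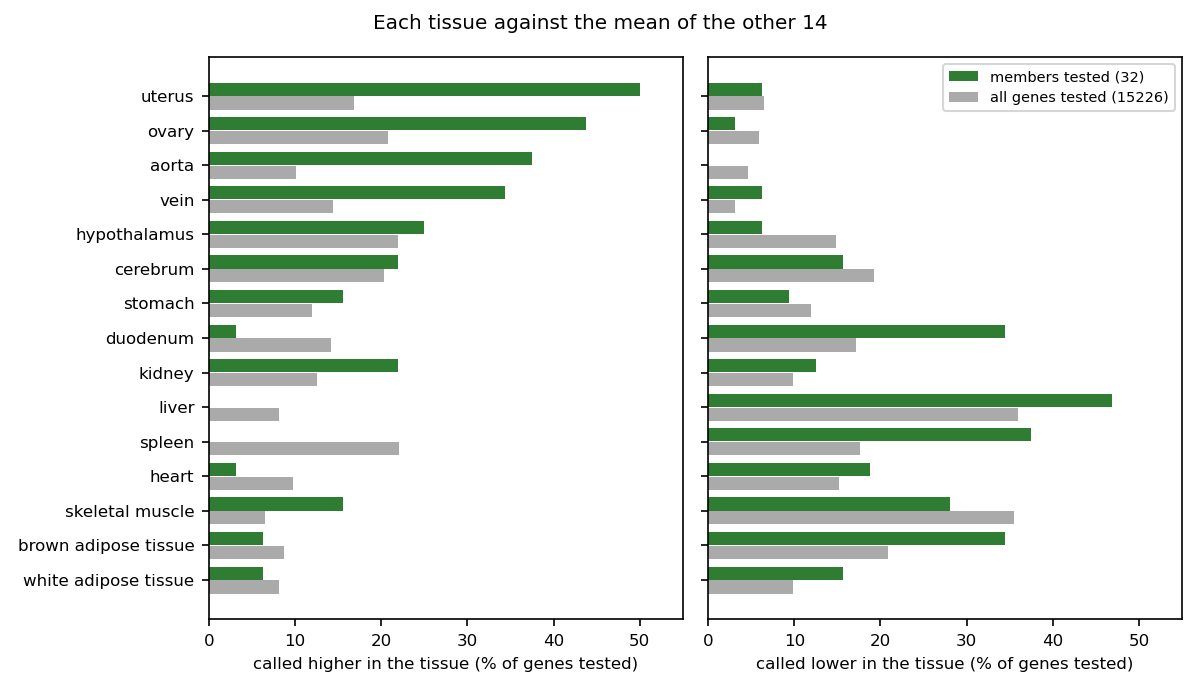
Share of the 32 members tested (green) and of the 15226 genes tested (grey) that were called higher (left) or lower (right) in each tissue against the mean of the other 14, in percent. The uterus has 50% of its members called higher against 16.8% of all genes, and liver has 0% called higher and 46.9% called lower.

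In ovary 14 members were called higher, against 20.8% of all genes, and 1 was called lower, against 5.85%. In aorta the counts were 12 higher (10.1% of all genes) and 0 lower (4.61%), and in vein 11 higher (14.4%) and 2 lower (3.17%). Hypothalamus had 8 higher (21.9%) and cerebrum 7 higher (20.3%), shares of 25% and 21.9% of the members. In liver 15 members were called lower (36% of all genes), in spleen 12 (17.6%), in duodenum 11 (17.2%) and in brown adipose tissue 11 (20.9%). Brown adipose tissue had 2 members higher (8.65%), white adipose tissue 2 higher (8.18%) and 5 lower (9.79%), kidney 7 higher (12.5%) and 4 lower (9.9%), stomach 5 higher and 3 lower (11.9% each), and skeletal muscle 5 higher (6.45%) and 9 lower (35.5%). Duodenum and heart had 1 member higher each (14.2% and 9.69%), and heart had 6 lower (15.2%). No member was called higher in liver, against 8.12% of all genes, or in spleen, against 22.1%. The largest called difference in ovary was 7.29 ± 0.21 (SE) for Sfrp4 on the log2 scale. Wnt10b, Wnt6 and Lgr5 passed the filter only through the ovary, and without them 11 of 29 members were called higher there under the filter on the other 14 tissues, against 20.3% of all genes. Wnt16 in aorta, Dkk2 in kidney and Fzd9 in skeletal muscle were likewise called higher and passed only through that tissue.

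The rest of the pathway was read from a list of 49 genes, of which 46 were tested in the uterus against the other tissues. 27 were called higher and 2 lower, against the 16.8% and 6.44% of all genes given above. These included the secretion genes Wls, which carries Wnt ligands to the cell surface, at a log2 difference of 2.12, and Porcn, the enzyme that lipid-modifies them, at 2.16. Among the receptors for ligands such as Wnt5a, Ptk7 stood at 3.30, Ror2 at 2.82 and Ryk at 1.35. The common targets and feedback genes Axin2 at 1.499, Nkd2 at 1.63 and Rnf43, a ligase that removes Frizzled receptors, at 2, were also called higher. Ctnnb1, beta-catenin, was called at 1.01, just above the limit of 1. The pathway calls are given only for the values as deposited, without quantile normalization. The 2 called lower were Sostdc1, a secreted inhibitor, at -1.26 and the co-repressor Tle4 at -1.11.

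The study compared estrus with diestrus within each tissue. In the uterus 28 members averaged 1 FPKM or more in the 6 libraries and were tested. Of the 28, 0 were called by limma, as were 0 of all 13706 genes tested (0%). In data simulated with the spread of the uterus, this fit called 14.5% of genes changed by 1.5 on the log2 scale. It called 85% of those changed by 3, so 0 calls do not show that the phases are alike. The study, with DEGseq, placed the uterus among the tissues with the most differing genes. At an unadjusted p under 0.05, 3 of the 28 members passed, beside 3.74% of all genes (512 genes), all 3 with the lower mean in estrus. Leaving out estrus replicate 1 took that count to 0 and leaving out replicate 2 of estrus to 5, whereas it was 2 when diestrus replicate 1 was dropped and 1 when any of the other 3 libraries was. The log2 fold change was above 0 in 14 members and below 0 in 14. Their median log2 fold change was -0.04, and that of all genes was -0.07.

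Wnt5a had estrus libraries at 16.7, 42.6 and 17.1 FPKM (replicates 1, 2 and 3, as in each list below) and diestrus libraries at 57.2, 53.6 and 46 FPKM. Every estrus library lay below every diestrus library. The log2 fold change was -1.14 ± 0.39 (SE), with an adjusted p in limma of 0.897 and an exact permutation p of 0.1, the smallest that 3 against 3 can give. Sfrp2 had estrus libraries at 5.17, 10.9 and 5.76 FPKM and diestrus libraries at 11.6, 16.9 and 48.7 FPKM, again without overlap, at -1.5 ± 0.54. Wnt9a, a ligand known from joint formation, had 1.91, 2.68 and 1.26 FPKM in estrus and 3.93, 2.72 and 3.75 FPKM in diestrus, at -0.62 ± 0.31. These 3 were the members whose phases did not overlap in the uterus, 3 of 28 against 7.92% of all genes. None of the 28 had all estrus libraries above, against 3.25% of all genes. In Wnt9a the nearest libraries of the phases were 2.68 and 2.72 FPKM.

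Wnt7a spread more within phase than between phases. Its estrus libraries stood at 2.32, 59.1 and 3.86 FPKM and its diestrus libraries at 52.2, 44.8 and 8.49 FPKM. Estrus replicate 2 was thus the highest of all 6. The log2 fold change was -1.53 ± 1.18, the largest in size among the 28 members, with an adjusted p of 0.897 in limma. Pgr, the progesterone receptor, was lowest in the 3 libraries that were lowest for Wnt7a, at 11.6, 68.8 and 10.2 FPKM in estrus and 53.5, 98.7 and 32.7 FPKM in diestrus, whereas the sum of the 5 estrogen response genes that include it was highest in estrus replicates 1 and 3. The part of this in the result was not tested. Wnt4 ran the other way, at 14.5, 21.7 and 35.2 FPKM in estrus and 16.6, 12 and 2.24 FPKM in diestrus, at 1.37 ± 0.66, with overlapping phases. Wnt11 stood at 3.51, 5.16 and 73.5 FPKM in estrus, the highest value being the library with squamous and oviduct markers, and at 16.1, 37.6 and 29.6 FPKM in diestrus. Wnt7b had 7.3, 16.1 and 12.6 FPKM in estrus and 22.1, 7.81 and 0.63 FPKM in diestrus, and Wnt16 had 8.73, 0.9 and 11.2 FPKM against 1, 1.74 and 3.76 FPKM, both overlapping.

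**Figure D3:**
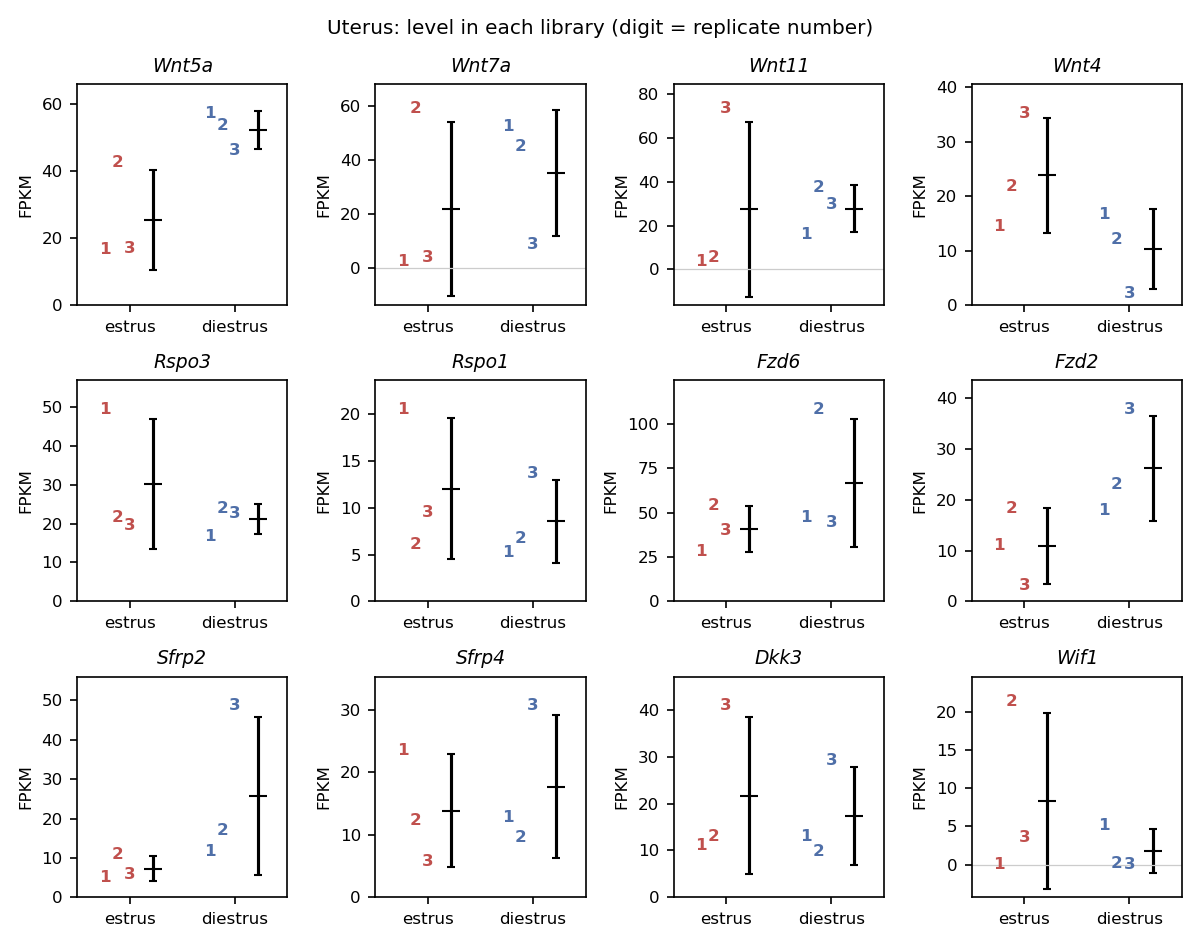
FPKM of 12 members in each uterus library, with estrus in red and diestrus in blue and the replicate number as the mark, beside the mean and SD of 3 libraries in black. In Wnt5a and Sfrp2 all estrus marks lie below all diestrus marks, whereas Wnt7a and Wnt11 have single estrus libraries at 59.1 and 73.5 FPKM above all others.

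Among the agonists and receptors the phases overlapped in every member tested. Rspo3 had 49.3, 21.5 and 19.4 FPKM in estrus and 16.8, 23.9 and 22.7 FPKM in diestrus, with estrus replicate 1 high. Rspo1 was also highest in estrus replicate 1, at 20.5 FPKM, against 5.26 to 13.6 FPKM in the other 5. Fzd6 had 28.4, 53.8 and 40.1 FPKM in estrus and 47.1, 108 and 44.5 FPKM in diestrus, at -0.62 ± 0.42. Fzd2 had 11, 18.2 and 3.23 FPKM in estrus and 17.8, 23 and 37.8 FPKM in diestrus, at -1.39 ± 0.58 and an unadjusted limma p of 0.047, and only the estrus library at 18.2 FPKM reached the diestrus range. Fzd1 stood at 4.6 to 16.6 FPKM and Fzd7 at 4.84 to 9.04 FPKM over the 6 libraries. Lgr4 stood at 7.06 to 17.3 FPKM, Lgr5 at 0.07 to 9.35 FPKM and Lgr6 at 0.84 to 4.77 FPKM, and the log2 fold change of these 3 receptors lay between 0.02 and 0.09.

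Among the inhibitors other than Sfrp2, Sfrp4 had 23.6, 12.4 and 5.67 FPKM in estrus and 12.9, 9.55 and 30.8 FPKM in diestrus, and Sfrp1 stood at 1.23 to 4.61 FPKM. Sfrp5 was at 0.13 to 0.53 FPKM and was not tested. Dkk3 was high in estrus replicate 3 at 40.9 FPKM and in diestrus replicate 3 at 29.2 FPKM, and stood at 9.7 to 13 FPKM in the other 4 libraries. Dkk2 was the steadiest member named here, at 3.66 to 4.93 FPKM, with a log2 fold change of 0.18 ± 0.23. Dkk1 stood at 0 to 0.23 FPKM and was not tested. Wif1 had 0.03, 21.4 and 3.5 FPKM in estrus and 5.14, 0.14 and 0.03 FPKM in diestrus, at 1.28 ± 1.19, so that both phases held libraries near 0.

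Of the marker lists, 3 separated the phases in the uterus. The 5 estrogen response genes summed to 7849, 619 and 2623 FPKM in estrus and to 461, 568 and 98.4 FPKM in diestrus. The 8 squamous epithelium markers summed to 162, 89 and 4605 FPKM in estrus and to 17.9, 14.2 and 1.10 FPKM in diestrus, and the 2 ciliated cell markers to 2.05, 4.62 and 416 FPKM and to 1.97, 0.87 and 0.51 FPKM. Other sums overlapped between the phases. The 7 stroma markers summed to 1340, 534 and 255 FPKM in estrus and to 803, 560 and 1944 FPKM in diestrus. Diestrus replicate 3, the highest, also had the highest Sfrp2 and Fzd2. Estrus replicate 1, the next in the stroma sum, had the lowest Sfrp2, at 5.17 FPKM. Its Fzd2, at 11 FPKM, was above only that of estrus replicate 3. The 6 smooth muscle markers summed to 4737, 1352 and 1049 FPKM in estrus and to 1698, 1205 and 3111 FPKM in diestrus, and estrus replicate 1, the highest, also had the highest Rspo1 and Rspo3. The 7 simple epithelium markers summed to 1608 to 1755 FPKM in estrus and to 1028 to 2564 FPKM in diestrus, and the 4 proliferation markers to 9.32, 153 and 8.63 FPKM in estrus and to 91.6, 23.8 and 47.9 FPKM in diestrus. No marker of these 7 lists was at 0 in all libraries of a phase. Their part in the member results was not tested.

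Of the 46 pathway genes tested in the uterus, 0 were called between the phases and 2 had an unadjusted limma p under 0.05, beside 3.74% of all genes. Lef1, a transcription factor that works with beta-catenin, had 0.58, 3.02 and 1.98 FPKM in estrus and 3.08, 5.78 and 18.7 FPKM in diestrus, at -1.62 ± 0.63. Tcf7l2, of the same family, had 11.7, 10.6 and 23.9 FPKM in estrus and 6.41, 7.18 and 9.16 FPKM in diestrus, at 0.85 ± 0.35. Neither overlapped between phases, nor did Ptk7, with means of 21.2 FPKM in estrus and 35.5 FPKM in diestrus. Over all genes 7.92% did not overlap. Axin2, the common read-out of the pathway, had 4.89, 22.3 and 17.2 FPKM in estrus and 19, 14.6 and 15.1 FPKM in diestrus, with overlap. The median log2 fold change of the 46 was -0.18, beside -0.07 over all genes.

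The calls in the uterus differed with the estimate of the spread. When all 90 libraries shared a single estimate of the spread, 4 of the 28 members were called, against 6.66% of all genes tested. These were Wnt5a (adjusted p = 0.000203 in limma), Wnt7a (0.0085), Fzd2 (0.0109) and Sfrp2 (0.018), all with the lower mean in estrus. That fit assumes that the uterus libraries vary as much as those of the other tissues.

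In the ovary 29 members were tested, and 0 were called, as were 0 of 13587 genes (0%). With limma 3 members had an unadjusted p under 0.05, beside 5.96% of all genes, a count that went to 9 when estrus replicate 3 was left out, to 1 when its diestrus counterpart was, and to 2 or 3 for any other library. Sfrp4 had the lowest p of the 3. It stood at 192, 403 and 273 FPKM in estrus and at 822, 697 and 926 FPKM in diestrus, so that the lowest diestrus library lay above the highest estrus library. The log2 fold change was -1.55 ± 0.27 (SE), with an unadjusted p of 0.000693, an adjusted p of 0.643 and an exact permutation p of 0.1, the smallest possible. It ran from -1.28 to -1.82 when any single library of the ovary was left out, with adjusted p from 0.12 to 0.999 in limma, and was -1.54 without estrus replicate 3. The 7 granulosa and luteal markers summed to 4380 to 4493 FPKM in estrus and to 5305 to 6283 FPKM in diestrus. Other lists also separated the phases. Ovgp1 stood at 12.4, 39.7 and 1563 FPKM in estrus and at 3.53, 2.35 and 4.67 FPKM in diestrus. The 2 ciliated cell markers summed to 4.5, 5.76 and 126 FPKM and to 0.1, 0.55 and 0.54 FPKM. The 2 neutrophil markers summed to at most 0.38 FPKM in estrus, with S100a8 at 0, and to 0.72 to 1.49 FPKM in diestrus. The part of these lists in the member results was not tested. In the pooled fit of 90 libraries the adjusted p of Sfrp4 in limma was 0.0407. It was called there, as were 0.339% of all genes tested in ovary.

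The ovarian ligands spread within phase. Wnt10b stood at 148, 86 and 29.1 FPKM in estrus and at 78.6, 70.9 and 106 FPKM in diestrus, with its lowest library the one with oviduct markers. Wnt4 had 83.5, 58.7 and 39.9 FPKM in estrus and 53.7, 52.2 and 56.7 FPKM in diestrus, and Wnt6 had 36.7, 20.4 and 9.95 FPKM against 14, 12.9 and 14.1 FPKM. In both, estrus replicates 1 and 2 lay above all diestrus libraries and replicate 3 below them. Wnt11, at 2.03, 3.19 and 12.2 FPKM in estrus and 2.1, 0.75 and 0.68 FPKM in diestrus, and Rspo3, at 1.43, 1.95 and 5.14 FPKM and 1.16, 0.88 and 1.34 FPKM, were both highest in estrus replicate 3. Rspo3 was the single member of the ovary with every estrus library above diestrus, against 8.13% of all genes, and Sfrp4 and Fzd8 were the 2 with every estrus library below, against 5.58%. The ovarian ligands, Rspo3 and Fzd8 were named after their values were seen. Of 44 pathway genes tested in the ovary 0 were called and 6 had an unadjusted limma p under 0.05, beside 5.96% of all genes. Axin2, Notum, Tnfrsf19 and Wls had the higher mean in estrus, and Cthrc1 and Frzb the lower. The means of Axin2 were 14.2 FPKM in estrus and 8.83 FPKM in diestrus.

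**Figure D4:**
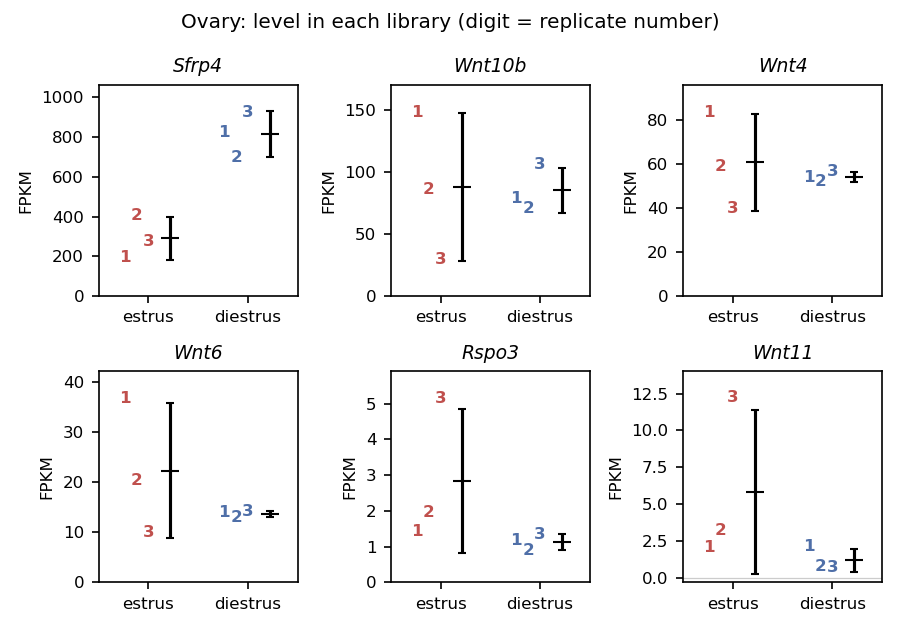
FPKM of 6 members in each ovary library, with estrus in red and diestrus in blue and the replicate number as the mark, beside the mean and SD of 3 libraries in black. Sfrp4 lies between 192 and 403 FPKM in estrus and between 697 and 926 FPKM in diestrus, and estrus replicate 3 is the lowest library of Wnt10b, Wnt4 and Wnt6 and the highest of Rspo3 and Wnt11.

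Whether the phase difference of a member differed between uterus and ovary was tested as an interaction over the 12 libraries. Of 33 members tested 0 were called, as were 0 of 14035 genes (0%). Only Wnt5a had an unadjusted limma p under 0.05, at 0.00997 with an adjusted p of 0.992, beside 529 genes over the table. Its means were 25.5 and 52.3 FPKM in the uterus in estrus and diestrus, and 18.9 and 14.6 FPKM in the ovary. Without uterus estrus replicate 2, Wnt5a was called, at a difference of -1.88 on the log2 scale and an adjusted p of 0.0338. Without any other single library, its adjusted p in limma was 0.894 or more, and it was not called. The share of all genes called without uterus estrus replicate 2 is not given.

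In the other 13 tissues 0 members were called between the phases by limma, and 1 gene was called in skeletal muscle (0.00936%), 1 in spleen (0.00798%) and 0 in the other 11. The counts of members with an unadjusted p under 0.05 were 7 of 25 in vein (12.1% of all genes) and 7 of 16 in skeletal muscle (20.8%). In white adipose tissue the count was 6 of 18 (5.97%). The counts ran from 0 to 3 in each of the remaining 10, where the share of all genes ran from 2.87% in kidney to 13.5% in duodenum.

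**Figure D5:**
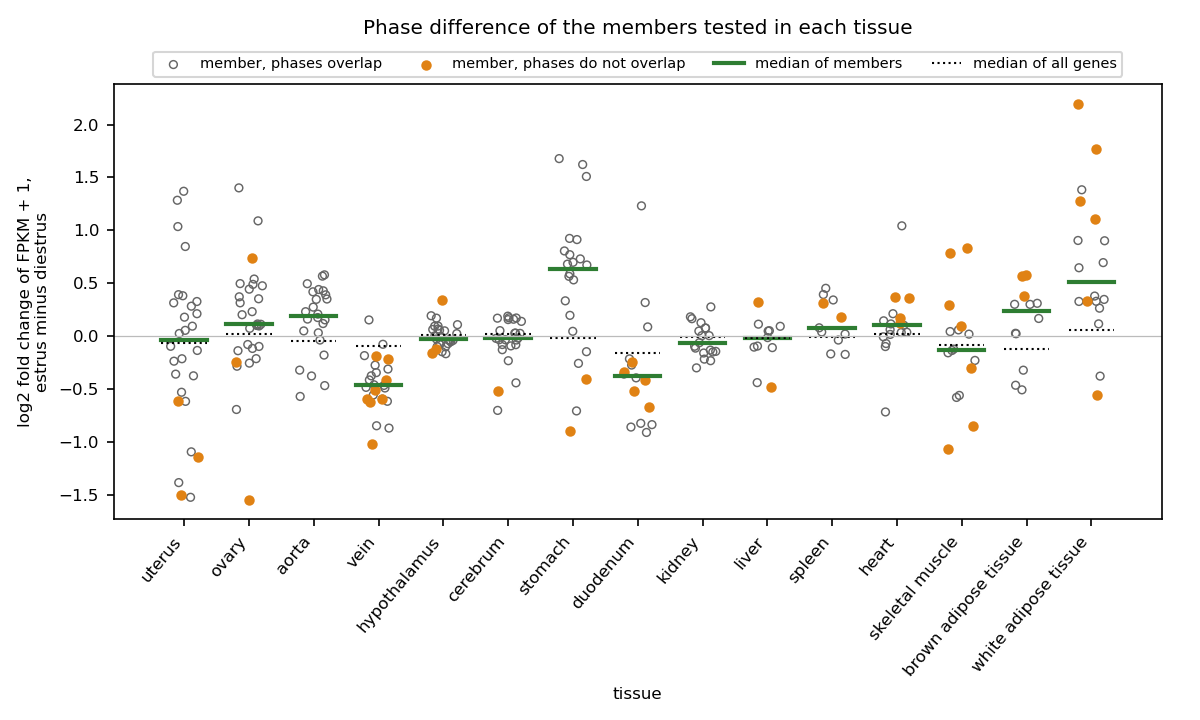
Log2 fold change of FPKM + 1, estrus minus diestrus (vertical), of each member tested in each tissue (horizontal), with filled orange points where the phases do not overlap, a green bar at the median of the members and a dotted line at the median of all genes. In vein 24 of 25 members lie below 0, and in white adipose tissue 16 of 18 lie above it.

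In vein 24 of 25 members had the lower mean in estrus, with a median log2 fold change of -0.47, where 67% of all genes were lower, with a median of -0.10. Every estrus library lay below diestrus in 8 members, against 12.9% of all genes. Wnt5a had 2.98, 3.75 and 3.59 FPKM in estrus and 6.65, 5.76 and 4.85 FPKM in diestrus, at -0.60 ± 0.15. Lgr6 had 3.92, 1.88 and 2.25 FPKM in estrus and 6.1, 8.86 and 4.53 FPKM in diestrus, at -1.02 ± 0.28. Dkk3 had 58.3, 35.4 and 36 FPKM in estrus and 62.7, 67.4 and 66.2 FPKM in diestrus. The adjusted p was 0.412 in limma for each of these 3. Wnt5a and Dkk3 in vein were named after their values were seen. The count lower stayed at 23 or 24 of 25 when any library was left out, and the median ran from -0.29 to -0.62. Of the estrus libraries, dropping replicate 1 took the count with an unadjusted p under 0.05 to 10, dropping replicate 2 to 2 and dropping replicate 3 to 4, and dropping diestrus replicate 3 took it to 11. The 6 smooth muscle markers summed to 1507 to 3338 FPKM in estrus and to 1959 to 4581 FPKM in diestrus, the 7 stroma markers to 769 to 1309 FPKM and to 1197 to 1910 FPKM, and the 3 adipocyte markers to 2022 to 3169 FPKM and to 1118 to 2210 FPKM. The 4 endothelium markers were lower in every estrus library, at 230 to 298 FPKM against 299 to 396 FPKM, with no marker of these lists at 0 in all libraries of a phase. The 8 squamous epithelium markers also did not overlap, at 0.19 to 0.32 FPKM in estrus, where 4 were at 0, and 0.6 to 1.23 FPKM in diestrus. Their part in the result was not tested.

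In white adipose tissue 16 of 18 members had the higher mean in estrus, with a median log2 fold change of 0.51 beside 0.06 over all genes, of which 36.7% were lower in estrus. Rspo3 had 20, 1.02 and 4.3 FPKM in estrus and 0.33, 0.44 and 0.23 FPKM in diestrus, at 2.19 ± 0.74. Sfrp4 had 33.3, 2.4 and 6.23 FPKM in estrus and 1.48, 2.2 and 1.66 FPKM in diestrus, at 1.77 ± 0.74. Dkk2, at 7.17, 0.84 and 1.35 FPKM against 0.49, 0.36 and 0.23 FPKM, and Dkk3, at 4.74, 0.67 and 2.2 FPKM against 0.45, 0.36 and 0.56 FPKM, also did not overlap. In all 4 estrus replicate 1 was the highest library and estrus replicate 2 lay close to diestrus, and the adjusted p was 0.791 in limma. Every estrus library lay above diestrus in 5 members, against 9.25% of all genes. Of these, Dkk2, Dkk3, Rspo3 and Wnt11 had diestrus means of 0.36, 0.457, 0.333 and 0.957 FPKM. They passed the filter only through estrus, which favoured this count, the number of members higher and their median. The 6 smooth muscle markers summed to 2712, 249.9 and 293.9 FPKM in estrus and to 137.2, 124.3 and 184.5 FPKM in diestrus, without overlap. The 7 stroma markers summed to 1729 FPKM in estrus replicate 1, against 379 to 628 FPKM in the other 5 libraries. The part of these markers in the result was not tested. Without estrus replicate 1 the median of the members was 0.29, 15 of 18 were higher and 5 had an unadjusted p under 0.05. That count was 13 without estrus replicate 2 and 1 to 3 without any other library. In the fit of all 90 libraries Dkk2, Rspo3 and Sfrp4 were called, against 0.218% of all genes. Lgr4 ran the other way, at 6.34, 5.15 and 5.15 FPKM in estrus and 8.73, 7.71 and 9.39 FPKM in diestrus. It was named after its values were seen.

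In skeletal muscle Fzd7, a receptor of muscle stem cells, had 25.9, 20.8 and 21.3 FPKM in estrus and 12.6, 12.6 and 12.9 FPKM in diestrus. The log2 fold change was 0.78 ± 0.09, below the limit of 1, with an adjusted p of 0.086 in limma. It was named after its values were seen. Wif1 had 0.42, 0.32 and 0.9 FPKM in estrus and 4.05, 1.09 and 2.12 FPKM in diestrus, at -1.07 ± 0.31 and an adjusted p of 0.132. Of the 16 members tested 4 had every estrus library above, against 4.27% of all genes, and 3 every estrus library below, against 21.9%. Wif1, among the latter, had an estrus mean of 0.547 FPKM and passed the filter only through diestrus. The count with an unadjusted p under 0.05 was 4 without estrus replicate 2 or diestrus replicate 1. Without estrus replicate 1, Sfrp4 was called lower, at -1.001 ± 0.185 and an adjusted p of 0.0258. The share of all genes called in that fit is not given. When any other single library was left out, 0 members were called. The sums of 5 marker lists did not overlap between the phases in muscle. The 3 skeletal muscle markers summed to 46150 to 55610 FPKM in estrus and 42400 to 45900 FPKM in diestrus, the 7 stroma markers to 123 to 142 FPKM and 179 to 227 FPKM, with Hand2 at 0 in estrus, and the 4 endothelium markers to 45.1 to 67.4 FPKM and 72.6 to 77.8 FPKM. The other 2 lists were low, the 7 granulosa and luteal markers at 4.34 to 9.36 FPKM and 9.53 to 10.3 FPKM and the 2 neutrophil markers at 0.35 to 0.46 FPKM and 0.14 to 0.28 FPKM, with S100a8 at 0 in diestrus. Their part in the results was not tested.

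In stomach 17 of 22 members had the higher mean in estrus, and 0 members were called. The median log2 fold change was 0.63, beside -0.02 over all genes. Fzd10, Lgr6, Rspo1 and Wnt16 had diestrus means of 0.68, 0.457, 0.437 and 0.457 FPKM. These members passed the filter only through estrus, which favoured the count higher and the median. The estrus libraries did not stand together. Wnt4 had 28.5, 2.14 and 62.7 FPKM in estrus and 12.3, 4.44 and 1.48 FPKM in diestrus, and Fzd10 had 6.64, 0.1 and 12 FPKM against 1.61, 0.41 and 0.02 FPKM. The 8 squamous epithelium markers summed to 6212, 257 and 9340 FPKM in estrus and to 1326, 616 and 213 FPKM in diestrus. The 6 libraries stood in the same order in the squamous sum, Wnt4 and Fzd10. The 6 smooth muscle markers summed to 5334 FPKM in estrus replicate 1, against 276 to 1924 FPKM in the rest. Dkk3, Sfrp1, Sfrp2, Rspo1, Rspo3 and Fzd2 were highest in that library. The part of both marker lists in the result was not tested. Without estrus replicate 1 the median was 0.12, and without estrus replicate 2 it was 1.14. In the fit of all 90 libraries Fzd10 was called, against 2.97% of all genes. Lgr4 and Wnt11 were the 2 of 22 members without overlap, both lower in estrus, against 12% of all genes, with Wnt11 at 4.23, 3.44 and 3.44 FPKM in estrus and 8.59, 6.39 and 8.36 FPKM in diestrus. All these stomach genes were named after their values were seen.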

How the data were processed

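RNA-seq of 15 tissues of female mice (C57BL/6 in the labels, C57BL/6J in the methods) was analysed in 90 libraries, 3 for each tissue and phase, grouped by the sample labels. The authors removed low-quality reads with SOAPnuke, aligned them to the mouse transcripts (GRCm38.p5) with Bowtie2 2.2.5 and quantified them with RSEM 1.2.8, and deposited a table of FPKM per gene. The unit was read from the methods and the values, since the table does not name it. The study's own test, DEGseq, needs read counts, which were not used here. Symbols for 20265 of the 20414 genes were matched in RefSeq's gene table for GRCm38.p6.

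FPKM values were tested as log2(FPKM + 1) with limma 3.58.1 (R 4.3.3, empirical Bayes with a mean trend, Benjamini-Hochberg adjustment over all genes tested). Genes that averaged 1 FPKM or more in the libraries compared were tested, and were called where the log2 difference reached 1 in either direction with an adjusted p not above 0.05. Phases were compared within each tissue on its 6 libraries, and tissues in a fit of all 90. A gene high in a single phase could pass the filter through that phase alone, which favoured a difference there. The code was tested on simulated data. Depth was approximated from the steps between low FPKM values of 923 short genes. Only 46.6% to 72.4% of values per library came out whole within 0.2 reads, so no counts were recovered.

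Members, marker and pathway lists were chosen with earlier results of these data known. In the uterus, the members named were the highest by mean in each class, those whose phases did not overlap and the 8 with the largest fold change. Across tissues each member counted by its highest tissue, with values from 5 FPKM. In other tissues, members without overlap and with an absolute log2 fold change of at least 1 were named, and the text says where others were added. Exact permutation tests were two-sided. Python 3.11.15 was used for summaries.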

Additional observations from a re-analysis of the deposited data

Results flagged for a closer look

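In 10 of the 35 members tested in at least 2 tissues (28.6%), every estrus library lay above every diestrus library in one tissue and below in another, as in 4954 of 16012 genes (30.9%). The differences between tissues below are on the log2 scale, and none of them was tested. Sfrp4 was higher in estrus in white adipose tissue (means of 14 and 1.78 FPKM) and lower in ovary (289 and 815 FPKM), which differed by 3.32. Dkk3 and Dkk2 lay above in white adipose tissue and below in vein, with differences of 1.73 and 1.69. In Wnt5a, brown adipose tissue (4.34 and 2.59 FPKM) stood against uterus (25.5 and 52.3 FPKM), with a difference of 1.72, and the estrus libraries of brown adipose tissue, here and for Fzd1 and Lgr4, include the one of low depth. Wnt11 differed by 1.23 between white adipose tissue and stomach. Fzd7 differed by 1.02 between skeletal muscle and duodenum, and Fzd1 by 0.986 between brown adipose tissue and duodenum. Wnt9a differed by 0.982 between heart and uterus. Lgr4 differed by 0.93 between brown and white adipose tissue, and Fzd8 by 0.559 between spleen and ovary.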

How the results depend on the processing

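The phase comparison of the uterus called 0 members with a pseudocount of 0.1, without the filter on low values, after rescaling, after quantile normalization and without any single library, and 4 (0 higher) in the fit of all 90 libraries. Over the 15 tissues the count was 0 under the same changes of scale and filter and without replicate 1, 2 or 3. It was 9 (4 higher) in the fit of all 90 libraries. That fit called from 0% of all genes in heart to 8.96% in brown adipose tissue. The members called in uterus against the other tissues numbered 18 and ran from 16 to 23 over the alternatives, and 13 of the 16 called higher were called higher in each of them, except that Wnt7a and Wnt16 were not tested under the filter on the other 14 tissues. Lgr4 and Fzd7 changed sign there after quantile normalization, to -0.0614 and -0.0497. With that normalization 13 members were called higher in the uterus, against 10.7% of all genes. After rescaling it was 18, against 19.2%. For the other 14 tissues together, 161 member calls (75 higher; 35.9% of member tests and 29.4% of all gene tests) became 273 (113 higher; 60.9% and 41.2%) with a pseudocount of 0.1, an alternative chosen after seeing the data, as were all those of this count and the filter on the other 14 tissues and the ones leaving out uterus estrus replicate 3 or single libraries of other tissues. The comparison of uterus with ovary called 0 to 1 members when single libraries were left out. The cause of these shifts was not tested. Estrus and diestrus libraries of the same number and tissue come from different mice, so the number does not pair the phases by mouse. In 0 of the 15 tissues did all 3 correlations of their deviations exceed 0.1. With 3 libraries per phase this check cannot exclude a processing batch shared by number. Whether the number marks the same mouse in different tissues of a phase was not tested. With the replicate block the counts were 0 in the uterus, 0 over the tissues, 18 in uterus against the other tissues, 161 in the other tissues and 0 between uterus and ovary. Depth, known only approximately, limits low members such as Wnt9a, and brown adipose tissue estrus replicate 3 most.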
